A study of Mus musculus with 6 samples.

Results

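The 10 genes described here are 9 CC chemokines of macrophages and monocytes, Ccl2, Ccl7, Ccl12, Ccl8, Ccl6, Ccl9, Ccl3, Ccl4 and Ccl24, and the chemokine receptor gene Ccr2. They were chosen by gene symbol from the 31053 genes of a single-cell RNA sequencing data set of mouse tumours, and all 10 were found. The tumours were of Yumm5.2, a mouse melanoma cell line, of which 350000 cells were injected under the skin of each C57BL/6 mouse. Every injected line carried a short hairpin RNA (shRNA) against Cdkn2a, controls included, together with a control hairpin or with hairpin 1 or hairpin 2 against Slc39a9, which encodes a zinc transporter. Mice were given 200 µg of anti-PD1, which blocks an inhibitory receptor of T cells, or of IgG at 3 doses per week, until tumours reached 0.5 cm3. Each of the 3 lines and both antibodies gave 1 library, which makes 6 libraries: under each antibody there was 1 control library and 1 library of each of the 2 knockdown lines. The control is 1 line with no replicate line, the number of tumours per library and the age of the mice are not given in the sources used here, and all p-values therefore measure only the spread between these libraries. The hairpins were introduced into the injected cells, so macrophages and other host cells carry none of them.

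CC chemokines are small secreted proteins that guide leukocytes by binding receptors on their surface. Ccl2, Ccl7 and Ccl12 encode ligands of CCR2, the receptor by which Ly6C-high monocytes leave the bone marrow and enter inflamed or tumour tissue. Ccl3 and Ccl4 encode inflammatory chemokines, and CCR1 is a receptor of CCL3. CCL6 and CCL9 are mouse chemokines that act through CCR1, CCL8 in mice acts on CCR8, and CCL24 is an eotaxin that attracts eosinophils through CCR3. As monocytes mature into tissue macrophages they are known to lose CCR2.

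Of the 9 chemokine genes, 8 lie on chromosome 11 in 2 groups (GRCm38 assembly, GENCODE M21 gene bounds). The first group, all on the plus strand, holds Ccl2 (ENSMUSG00000035385, chr11:82035571-82037453), Ccl7 (ENSMUSG00000035373, chr11:82045712-82047525), Ccl12 (ENSMUSG00000035352, chr11:82101845-82103400) and Ccl8 (ENSMUSG00000009185, chr11:82115185-82116799). The other group holds Ccl9 (ENSMUSG00000019122, chr11:83572919-83578636), Ccl6 (ENSMUSG00000018927, chr11:83587882-83593087) and Ccl3 (ENSMUSG00000000982, chr11:83647844-83649355) on the minus strand and Ccl4 (ENSMUSG00000018930, chr11:83662584-83664683) on the plus strand. Ccl24 (ENSMUSG00000004814, chr5:135569937-135573049) and Ccr2 (ENSMUSG00000049103, chr9:124101950-124113557) lie on other chromosomes. These neighbours are related genes, and reads shared between near-identical stretches of them could be split or dropped in the counting.

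The 150 bases before the start of a pair of neighbours from each group are shown, because Ccl12 and Ccl8, and Ccl6 and Ccl9, are the members with the largest share of their UMIs in macrophages. The sequences are from RefSeq on GRCm38.p6, read 5′ to 3′ on the strand of the gene, and capitals mark matches to TATAA on either strand. A promoter was found for 6 of the 10 members.
Ccl12, chr11:82101695-82101844, plus strand: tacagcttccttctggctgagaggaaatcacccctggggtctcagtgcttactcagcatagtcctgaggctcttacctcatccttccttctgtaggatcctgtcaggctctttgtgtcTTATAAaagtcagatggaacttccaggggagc
Ccl8, chr11:82115035-82115184, plus strand: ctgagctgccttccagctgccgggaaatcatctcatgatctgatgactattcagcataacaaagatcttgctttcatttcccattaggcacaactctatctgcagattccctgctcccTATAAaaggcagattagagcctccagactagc
Ccl6, chr11:83593088-83593237, minus strand: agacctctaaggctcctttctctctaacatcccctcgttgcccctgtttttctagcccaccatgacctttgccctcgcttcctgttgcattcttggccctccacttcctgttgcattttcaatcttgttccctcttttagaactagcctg
Ccl9, chr11:83578637-83578786, minus strand: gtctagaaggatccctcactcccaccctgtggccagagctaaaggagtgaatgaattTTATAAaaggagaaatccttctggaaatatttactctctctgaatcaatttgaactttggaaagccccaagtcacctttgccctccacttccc
Position by position without gaps, the Ccl12 and Ccl8 windows were identical at 38.7% of their bases, and the other 14 pairs among the 6 windows at 16.7% to 29.3%. On the strand of the gene, TATAA began 31 bases before the start in Ccl12, 32 in Ccl8, 92 in Ccl9 and 11 in Ccl3, and in Ccl12 and Ccl9 an overlapping match lay on the other strand. The Ccl6 and Ccr2 windows did not hold it, and 14.2% of 32851 promoter windows of this length do. The Ccl9 window also held a match to NF-kB, which 4.6% of windows hold, and matches to AP-1 (TGANTCA, 4.24% of windows) and C/EBP (TTNCNNAA, 22.7%). The Ccl3 window held a C/EBP match, and no window held GAS (TTCNNNGAA, in 4.09%). Both strands were searched, matches of different motifs may overlap, and a match is a description of the letters only.

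The libraries held 58859821 to 83204249 UMIs (unique molecular identifiers, each standing for 1 captured RNA molecule) and, after filtering, 5037 to 8733 cells. Pairs of libraries shared 63.2% to 89.5% of the barcode names of the smaller library. Between the control IgG and control anti-PD1 libraries, the only pair checked, the same name carried similar UMI totals (Pearson's r of the log totals 0.97). The names were therefore not used to look for shared cells. Macrophages were cells with at least 3 UMIs of C1qa, C1qb and C1qc together, which encode complement C1q. There were 9972 of them, 1351 to 1957 per library. They were split by whether the sum of Mrc1, F13a1 and Cbr2, genes of resident-like macrophages, exceeded the sum of H2-Aa, H2-Ab1 and H2-Eb1, genes of MHC class II antigen presentation. The Mrc1 side held 81.7% and 77.5% of macrophages in the control line (IgG first, then anti-PD1, here and below), 62.6% and 71.7% in the hairpin 1 line and 49.6% and 56.7% in the hairpin 2 line. The 411 macrophages with equal sums, 278 of them with no UMI of the 6 split genes, counted on the MHC II side. Neutrophils and monocytes came from clusters named by marker genes, without the cells that met the C1q rule. The monocyte cluster had Chil3, Ccr2 and Plac8 among its leading genes, and also Il1r2, which was listed as a neutrophil marker. Tumour cells came from clusters with Xist and almost no Y-linked UMIs, which is an assumption because the labels give no sex. Slc39a9 in tumour cells stood at 22.9 and 21.3 CPM in the control line, 8.52 and 8.60 in hairpin 1 and 12.2 and 11.4 in hairpin 2. CPM, here and below, stands for counts-per-million: the UMIs of a gene in a class, scaled to the UMIs of all genes in it.

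By the mean of the 6 libraries, macrophages held most UMIs of 8 of the 10 members, and tumour-line cells most of those of Ccl2 and Ccl7. Ccl2, the principal monocyte attractant, had 83.3% of its UMIs in cells of the tumour line (mean of 6 libraries, range 71.6% to 90.1%) and 14.9% (8.22% to 26.5%) in macrophages. Ccl7, its close relative, had 61.7% (52.7% to 72.5%) in the tumour line and 34.4% (23.4% to 43.4%) in macrophages. In contrast, macrophages held 96.2% of the UMIs of Ccl12 (94.5% to 98.3%) and 95.1% of those of Ccl8 (92.8% to 98.3%). For Ccl6 the macrophage share was 76.6%, for Ccl9 73.1%, for Ccl4 67.0%, for Ccl3 64.1% and for Ccr2 65.9%. Neutrophils added 17.7% of Ccl3 (4.1% to 31.7%) and 16.6% of Ccl4 (4.74% to 28.3%), monocytes 21.9% of Ccr2, and osteoclast-like cells 5.32% of Ccl9. Ccl24 was rare, with 130 UMIs in all macrophages together, and its macrophage share of 67.2% ran from 15.8% to 100% between libraries, while monocytes held up to 64.8%. These shares move with the number and depth of the cells of each class: tumour cells had medians of 10075 to 13793 UMIs per library, macrophages 2592 to 4130 and neutrophils 760 to 984.

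**Figure D1:**
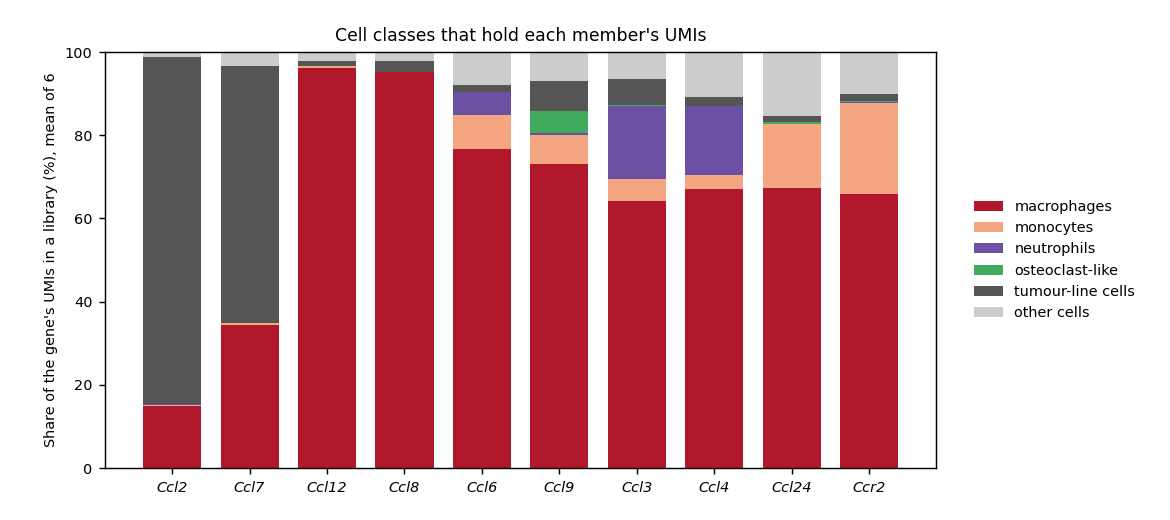
Share of each gene's UMIs (percent of a library, mean of 6 libraries, linear axis from 0) held by macrophages, monocytes, neutrophils, osteoclast-like cells, tumour-line cells and all other cells, as stacked bars. Tumour-line cells hold 83.3% of Ccl2 and 61.7% of Ccl7, and macrophages hold 96.2% of Ccl12 and 95.1% of Ccl8.

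In CPM, macrophages exceeded tumour cells for all 10 members, in a comparison where 37.9% of 15870 genes were higher in macrophages (edgeR, adjusted p under 0.05). Ccl2 was the closest: its level in tumour cells was 533 and 524 CPM in the control line, 246 and 262 in hairpin 1 and 410 and 451 in hairpin 2. In macrophages it was 760.3 and 691, 527 and 649, and 437 and 509 in the same order, above the tumour cells of the same library in 6 of 6. The log2 difference was 0.60 ± 0.17 (SE; edgeR adjusted p = 0.00725). On the MHC II side alone, the median of Ccl2 over libraries was 281 CPM, below the 430 CPM of tumour cells. Tumour-line clusters left out of the tumour cell class had 456 to 562 CPM of Ccl2. Ccl7 in tumour cells ran from 89.4 to 142 CPM, and its log2 difference was 2.44 ± 0.13 (edgeR adjusted p = 5.1e-08). The other 8 differed by 6.59 to 9.56 on the log2 scale. After each cell was thinned to 2000 UMIs, Ccl2 was detected in 19.1% to 29.6% of tumour cells and Ccl7 in 11.0% to 15.6%. At that depth Ccl6 was detected in 0.194% to 1.02% of tumour cells and in 28.1% to 55.7% of macrophages. Without thinning, 36.3% to 62.8% of macrophages had a Ccl6 UMI. RNA freed from other cells can add such UMIs to any cell, and its part in these shares was not tested.

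Mast-like cells had more Ccl2 and Ccl7 per UMI than macrophages, and no Ccl12 UMI was counted in them. These cells, 7 to 31 per library, had 1788 to 4746 CPM of Ccl7 and 874 to 1680 CPM of Ccl2. Both ranges lie above those of all macrophages. The fibroblast and pericyte class reached 467 CPM of Ccl7 and 144 CPM of Ccl8, and it was the class outside macrophages with the highest median of Ccl8. T and NK cells, 23 to 79 per library, had 637 to 978 CPM of Ccr2, against 456 to 684 in all macrophages. Osteoclast-like cells had 492 to 904 CPM of Ccl9, against 532 to 951 in all macrophages. No test was made on these small classes.

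Against neutrophils, 7 members were higher in macrophages, where 26.1% of 12239 genes were, and 3 were lower, where 17.4% were (edgeR). The 3 were Ccl3, Ccl4 and Ccl6. Ccl3 stood at 1405, 1549, 1664, 1608, 1724 and 1351 CPM in neutrophils, in the order above, and at 199, 201, 179, 164, 185 and 167 in macrophages. No library overlapped, and the log2 difference was -3.15 ± 0.19 (edgeR adjusted p = 1.18e-60). Ccl4 stood at 499 to 1218 CPM in neutrophils and 76.7 to 109 in macrophages, a log2 difference of -3.07 ± 0.19 (edgeR adjusted p = 8.55e-55). Ccl6 was lower by less, -1.30 ± 0.18 (edgeR adjusted p = 4.8e-12), and the ranges did overlap, with 896 CPM in neutrophils of the hairpin 2 anti-PD1 library. Among the 7 higher ones, Ccl2 differed least (1.80 ± 0.21) and Ccl8 most (6.95 ± 0.46), leaving aside Ccl24, which had no UMI in neutrophils and has no bound on its fold from the fit.

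Ccr2 and the CCR2 ligands ran in opposite directions between monocytes and macrophages. Ccr2 in monocytes stood at 1734, 1839, 2576, 2391, 2167 and 2177 CPM, against 465, 456, 684, 478, 592 and 566 in macrophages. The log2 difference, macrophages minus monocytes, was -2.12 ± 0.07 (edgeR adjusted p = 1.18e-22), with no overlap. Because Ccr2 is among the leading genes of the cluster that gave the monocytes, its values here are a description, and the p-value is not independent support. The ligand genes Ccl2 (1.64 ± 0.10), Ccl7 (3.25 ± 0.14) and Ccl12 (4.07 ± 0.19) were higher in macrophages, as were Ccl8 (8.44 ± 0.27) and Ccl4 (0.51 ± 0.12). In this comparison 22.6% of 12169 genes were higher in macrophages and 20% lower (edgeR), and the members counted 5 and 3. Ccl8 was nearly absent from monocytes, at 0 to 1.25 CPM. Ccl9 was slightly lower in macrophages (-0.33 ± 0.08, edgeR adjusted p = 0.00132), while Ccl6 (-0.43 ± 0.19, adjusted p = 0.0638) and Ccl3 (-0.17 ± 0.11, adjusted p = 0.227) did not pass. The lower Ccl24 in macrophages (-2.13 ± 0.60, edgeR adjusted p = 0.00425) rested on 1 library: control anti-PD1 had 90 of the Ccl24 UMIs of monocytes, control IgG 11 and hairpin 2 IgG 1, and without control anti-PD1 the log2 difference was -0.25.

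The C1q rule sets where monocytes end and macrophages begin. Myeloid cells with 2 C1q UMIs, just outside it (249 cells), had 1327 CPM of Ccr2, 1147 of Ccl6 and 31.1 of Ccl8. Those with 3, just inside (238 cells), had 1118, 1630 and 64.5.

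**Figure D2:**
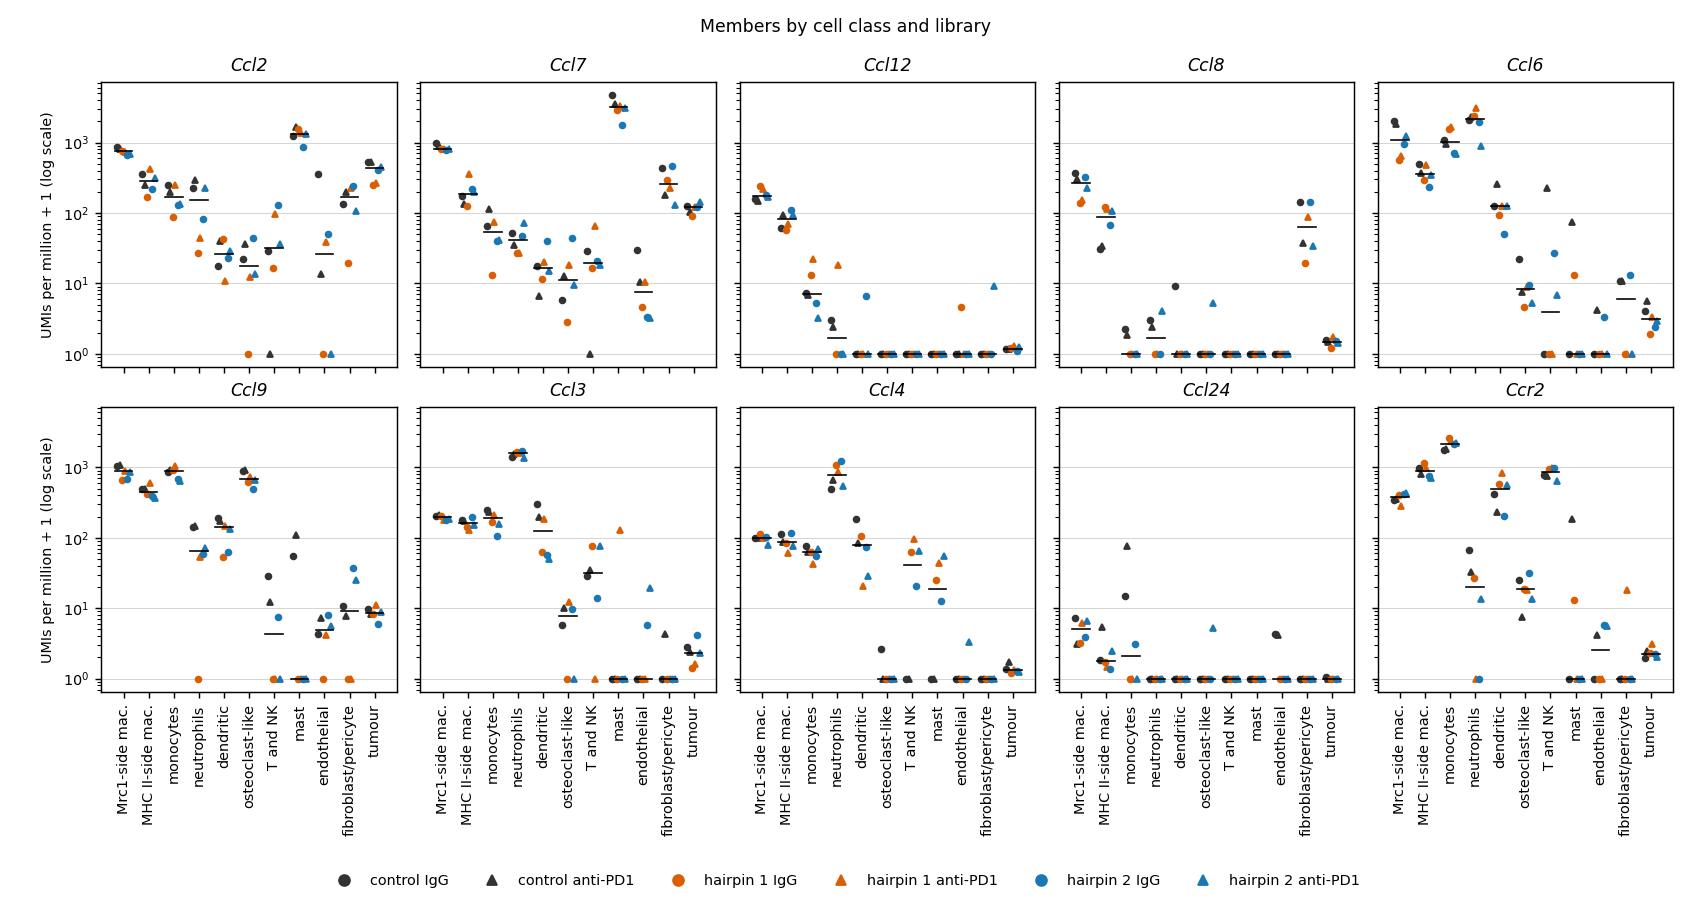
Level of each member (CPM + 1, log axis) in 11 cell classes, 1 point per library, with colour for the line, shape for the antibody and a bar at the median of the libraries. Ccl12 and Ccl8 stand high in both sides of the macrophages, Ccl3 and Ccl4 in neutrophils, Ccr2 in monocytes, and Ccl7 in mast-like cells.

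Within macrophages, the chemokines stood higher on the Mrc1 side and Ccr2 on the MHC II side. Of the 10 members, 8 were lower on the MHC II side, where 12.4% of 11992 genes were, 1 was higher, where 12% were, and Ccl4 did not pass (-0.16 ± 0.11, edgeR adjusted p = 0.339). The median log2 difference of the members was -1.33, against 0.011 over all genes tested. None of the members was used to split the cells.

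The genes of the CCR2 ligands were all lower on the MHC II side. Ccl7 on the Mrc1 side stood at 977, 891, 813, 814, 792 and 820 CPM and on the MHC II side at 172, 131, 124, 360, 216 and 198. The sides did not overlap in any library, and the log2 difference was -2.15 ± 0.17 (edgeR adjusted p = 1.84e-06). Ccl2 stood at 857, 811, 753, 736, 670 and 690 CPM on the Mrc1 side and at 352, 251, 166, 422, 217 and 311 on the other, a log2 difference of -1.45 ± 0.13 (edgeR adjusted p = 7.4e-06). Ccl12 was lower by 1.21 ± 0.16 on the log2 scale (edgeR adjusted p = 0.000119), from 149 to 238 CPM down to 57.1 to 110 CPM. None of these ranges overlapped either.

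Ccl6, Ccl9 and Ccl8 were lower on the MHC II side too. The log2 difference of Ccl6 was -1.60 ± 0.20 (edgeR adjusted p = 9.01e-05), with 562 to 2030 CPM on the Mrc1 side and 234 to 494 on the other. That of Ccl9 was -0.92 ± 0.08 (edgeR adjusted p = 5.64e-06), with 657 to 1079 against 369 to 590 CPM. Ccl8 differed unevenly: 366 and 300.2 against 30.1 and 32.5 CPM in the control line, 137 and 152 against 121 and 115 in hairpin 1, and 320 and 227 against 67.2 and 105 in hairpin 2. Its log2 difference was -1.56 ± 0.35 (edgeR adjusted p = 0.00581). Ccl3 (-0.27 ± 0.08, edgeR adjusted p = 0.0236) and the rare Ccl24 (-1.54 ± 0.51, adjusted p = 0.0456) passed narrowly, and these calls held in 8 of 16 and 7 of 15 alternative settings, with Ccl3 at -0.01 in macrophages of host myeloid clusters. The other 7 calls held in 16 of 16.

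Ccr2 had the opposite order, with 345, 358, 397, 281, 420 and 435 CPM on the Mrc1 side and 971, 815, 1140, 985, 754 and 709 on the MHC II side. The log2 difference was 1.26 ± 0.12 (edgeR adjusted p = 8.81e-06), without overlap.

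**Figure D3:**
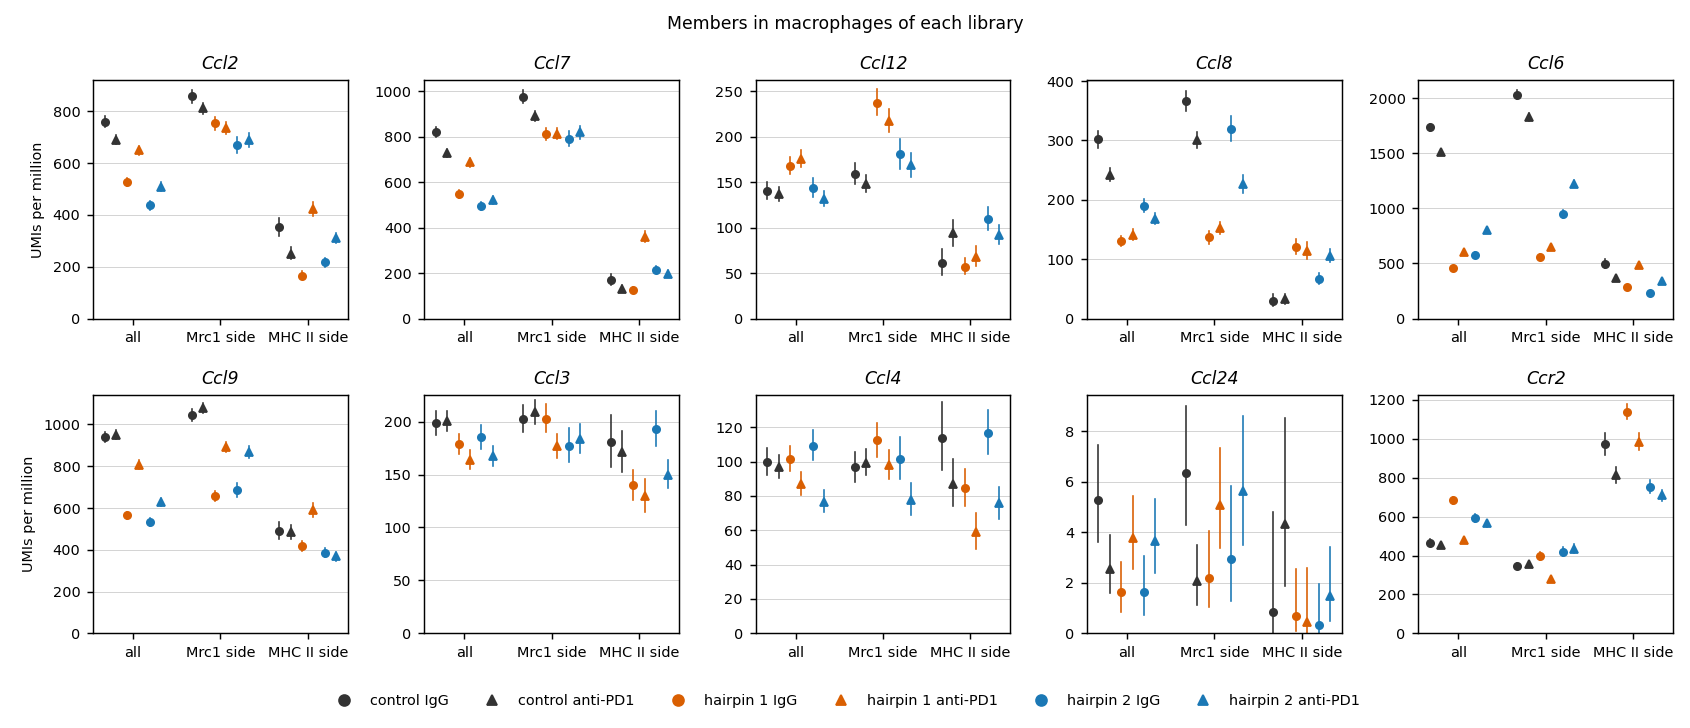
Level of each member (CPM, linear axes from 0) in all macrophages, on the Mrc1 side and on the MHC II side, 1 point per library with an exact Poisson 95% interval that covers counting error only. Ccl2, Ccl7, Ccl12 and Ccl6 are higher on the Mrc1 side in each library, Ccr2 on the MHC II side, and Ccl6 of all macrophages is highest in both control libraries.

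Some pairs of these genes came together in single cells and others did not. Among 7013 macrophages thinned to 2000 UMIs, Ccl7 was detected in 64.6% of cells with Ccl2 and in 17.1% of cells without it. Ccl9 was detected in 75.8% of cells with Ccl6 and 46.5% of the rest, and Ccl4 in 27.6% of cells with Ccl3 and 8.20% of the rest. In contrast, Ccl6 was detected in 39.9% of cells with Ccl12 and 41.3% of the rest. Ccl3 was detected in 25.7% of cells with Ccl6 and 22.0% of the rest. Ccr2 was detected in 25.8% of cells with Ccl7 and 40.8% of those without, and in 11.0% of cells with Ccl8 and 38.2% of those without. With Ccl9 it was 37.6% against 32%, and with Ccl6 35.4% against 35.1%, so Ccr2 was less frequent beside some of the chemokines and not beside others. Cells of 1 library are not replicates, and these shares are a description. Over the 60 sums of library and class, which share libraries and depth, Pearson's r of log2(CPM + 1) was 0.86 between Ccl2 and Ccl7, 0.86 between Ccl3 and Ccl4, 0.88 between Ccl6 and Ccl3 and 0.75 between Ccl12 and Ccl8. Between Ccr2 and the chemokines it ran from -0.02 with Ccl7 to 0.60 with Ccl3, with Ccl6 at 0.56 and Ccl9 at 0.53.

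Among 7966 genes compared over the same 60 sums, the genes most like each member differed by member. Ccl12 was most like C1qc (r = 0.90), Fcrls and Ms4a14, and Ccl8 most like Gas6 (0.83), Col14a1 and Ccl12. Because C1qc is part of the rule that set the macrophage classes, its r with a macrophage gene is a description and not independent support. Ccl6 was most like Cd300ld (0.94), Mpeg1 and Il1rn, and Ccl9 most like Csf1r (0.92), the receptor gene of the macrophage growth factor, Tbxas1 and Clec4a2. Ccl3 was most like Tnfsf14 (0.92), Cyp4f18 and Cxcl2, a neutrophil attractant, and Ccl4 most like Lilrb4a (0.91), Lilr4b and Gm49339. Among the genes most like Ccr2 were Cd83 (0.89) and Ms4a6b (0.89). Beside Ccl7, the values for Ccl2 were lower, with Kif21a at 0.64, and the nearest gene to Ccl24 was Ppbp at 0.64.

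Macrophages of the Slc39a9 knockdown tumours had less Ccl6 than those of the control tumours in every library, and the tests divided on it. Ccl6 stood at 1735 and 1514 CPM in the control line, 456 and 601 in hairpin 1 and 580.2 and 804 in hairpin 2. The groups did not overlap. The log2 difference, knockdown minus control, was -1.46 ± 0.18, with an edgeR adjusted p of 0.0657 and a DESeq2 adjusted p of 1.27e-11. With edgeR's quasi-likelihood test 0 of the 10 members passed, in a comparison that called 0.0855% of 12868 genes and gave 1429 an unadjusted p under 0.05. DESeq2 called 1.22% of the same genes, 3 members among them: Ccl6, Ccl8 and Ccl9.

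The other chemokine genes lay in the same direction, except Ccl12. Ccl8 stood at 302 and 243 CPM in the control line, 131 and 141 in hairpin 1 and 190.1 and 169 in hairpin 2 (log2 difference -0.81 ± 0.16, edgeR adjusted p = 0.149, DESeq2 0.00113). Ccl9 stood at 939.8 and 951, 565 and 808, and 532 and 629.7 CPM (-0.62 ± 0.13, edgeR adjusted p = 0.185, DESeq2 0.00488). Ccl7 stood at 822 and 728, 547 and 687, and 496 and 523 CPM (-0.49 ± 0.14, edgeR adjusted p = 0.286). For these 3, and for Ccl2 at -0.48 ± 0.15 (edgeR adjusted p = 0.303), both control libraries were above all 4 knockdown libraries. Ccl12 overlapped, with 140.4 and 137 CPM in the control line, 168 and 176 in hairpin 1 and 144 and 132 in hairpin 2 (0.14 ± 0.13, edgeR adjusted p = 0.753). Ccl3 (-0.23 ± 0.08), Ccl4 (-0.11 ± 0.11) and Ccl24 (-0.61 ± 0.50) had edgeR adjusted p-values of 0.341, 0.759 and 0.714. Ccr2 had a difference of 0.30 ± 0.12 (edgeR adjusted p = 0.401). The median over the 10 members was -0.48, against 0.01 over all genes tested.

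Other measures also moved with the knockdown in these cells. Neutrophil marker genes in macrophages, 13 in the list and 10 to 13 of them with a UMI, summed to 489 and 479 CPM in the control line and 114 to 260 CPM in the knockdown lines. Neutrophils themselves were 4.83% and 5.66% of cells in the control line and 0.754% to 1.99% in the others. In macrophages with at most 1 UMI of S100a8 and S100a9, the log2 difference of Ccl6 was as large, at -1.49 (edgeR adjusted p = 0.0633). That limit left out only 96 of the 9972 macrophages, so nearly all cells were the same as before. The part of neutrophil RNA in the difference was not tested. The share of the Mrc1 side was also higher in the control line, as given above, and Ccl6 is compared within each side below.

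Within the Mrc1 side, Ccl6 stood at 2030 and 1828 CPM in the control line, 562 and 646 in hairpin 1 and 946 and 1224 in hairpin 2, a log2 difference of -1.24 ± 0.26 (edgeR adjusted p = 0.0921). Ccl9 differed by -0.50 ± 0.10 (edgeR adjusted p = 0.086, DESeq2 0.00278), with 1047 and 1079 CPM in the control line and 657 to 893 in the others. No member passed in edgeR, which called 0.28% of 12163 genes there and gave 1477 an unadjusted p under 0.05. DESeq2 called 1.4% of 11219 genes, 1 member among them. Ccl2 (-0.26) and Ccl7 (-0.24) differed by less on this side than over all macrophages. Ccl8 differed by -0.72 ± 0.28 (edgeR adjusted p = 0.35).

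Within the MHC II side, Ccl6 differed by -0.42 ± 0.26 (edgeR adjusted p = 0.814), and by -0.94 to 0.15 under alternative settings. Ccl2 (-0.23 ± 0.31), Ccl9 (-0.17 ± 0.20) and Ccl7 (0.50 ± 0.36) had edgeR adjusted p-values of 0.922, 0.905 and 0.84. The values of Ccl8 ran the other way from those on the Mrc1 side. It stood at 30.1 and 32.5 CPM in the control line and at 67.2 to 121 CPM in the knockdown lines, without overlap, a log2 difference of 1.69 ± 0.27 (edgeR adjusted p = 0.301, DESeq2 0.000222). Here edgeR called 0 of 11312 genes, with 751 at an unadjusted p under 0.05, and DESeq2 called 22, 1 of the 9 members tested among them. The test of the difference between the sides gave 2.42 ± 0.51 for Ccl8 (unadjusted p = 0.000531, edgeR adjusted p = 0.487). It called 0 of 11992 genes in edgeR, 677 having an unadjusted p under 0.05, and 1 gene in DESeq2. Without hairpin 2 IgG the value was 2.81 (edgeR adjusted p = 0.0188), the one member called in that comparison when a library was left out.

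A small cluster of macrophages carried much of Ccl8. It was led by Lyve1, a marker of vessel-associated macrophages, Ccl8 and Cd163, a haemoglobin scavenger receptor gene, and kept no class name. It held 114 macrophages: 27 and 48 in the control line, 6 and 10 in hairpin 1 and 9 and 14 in hairpin 2, or 1.83% and 2.45%, 0.444% and 0.577%, and 0.556% and 0.763% of macrophages. These cells had 31.7% and 27.8% of macrophage Ccl8 UMIs in the control line, 24.3% and 12.9% in hairpin 1 and 7.75% and 11.1% in hairpin 2. Because Ccl8 and Ccl6 are among its leading genes, these are descriptions. Outside it, Ccl8 stood at 210 and 179 CPM in the control line, 99.5 and 124 in hairpin 1 and 176 and 151 in hairpin 2. Those groups still did not overlap, though by little. Ccl6 outside it stood at 1577 and 1348, 414 and 556, and 552 and 751 CPM, so its order did not rest on these cells.

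By cluster, Ccl6 was higher in both control libraries than in the others in 3 of 6 clusters. In cluster 14 it stood at 1588 and 1362 CPM in the control line, 326 and 545 in hairpin 1 and 545 and 740 in hairpin 2. In cluster 19, which has fewer UMIs per cell and Ccl6 and Ccl9 among its leading genes, it stood at 2257 and 2387, 566 and 872, and 1133 and 1648. In cluster 15, led by Mmp12 and Rsad2, it stood at 3693 and 2625 CPM in the control line and 1116 to 1719 in the others. In the other clusters the groups overlapped: cluster 16, named monocytes, had 1193 and 1214 CPM in the control line and 1540 in hairpin 1 anti-PD1. Cluster 17, led by the proliferation gene Mki67, had 401 and 378 CPM in the control line and 559 in hairpin 2 anti-PD1, and cluster 18 had 11290 and 9363 against 11370 in hairpin 1 anti-PD1 and 11030 in hairpin 2 anti-PD1.

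**Figure D4:**
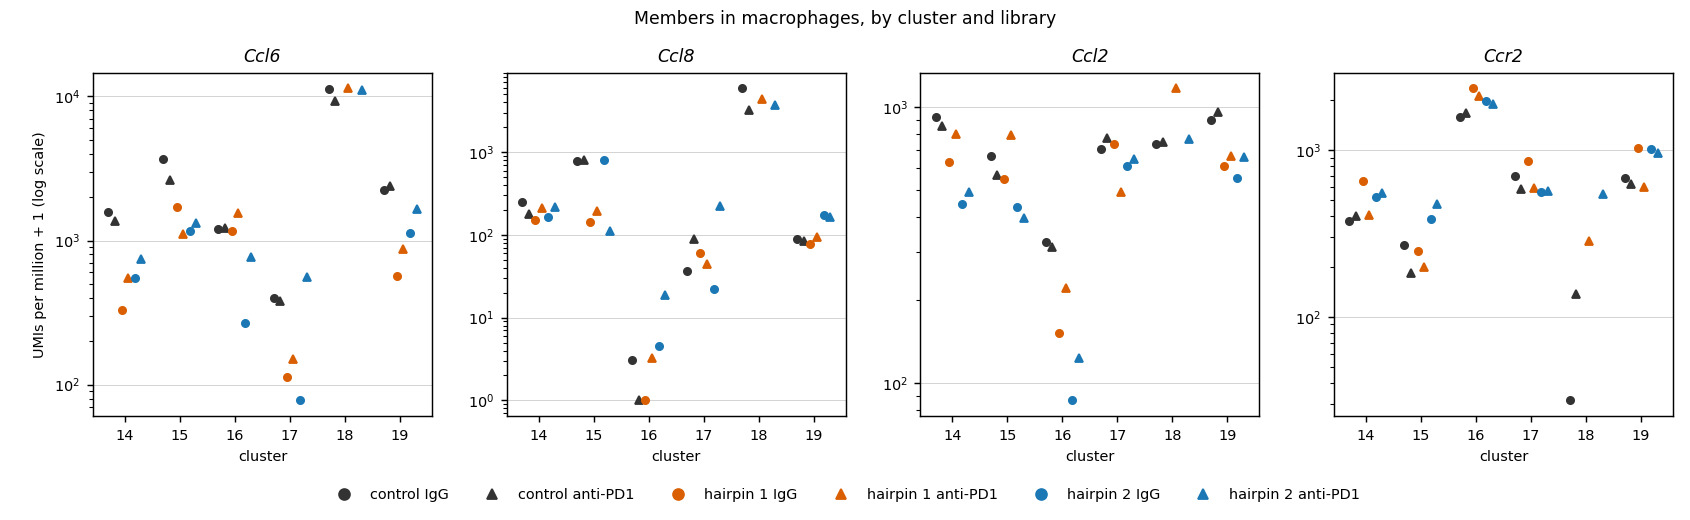
Level of Ccl6, Ccl8, Ccl2 and Ccr2 (CPM + 1, log axes) in macrophages of 6 clusters, 1 point per library, for libraries with at least 10 such cells. Ccl8 and Ccl6 are highest in cluster 18, led by Lyve1, and Ccr2 in cluster 16, named monocytes, while Ccl6 is higher in both control libraries than in the others in clusters 14, 15 and 19 and overlaps in clusters 16, 17 and 18.

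The hairpin lines were also set against the control line one by one. These comparisons share the control libraries, and their spread is that between treatments of a line. In the hairpin 1 line 3 members were lower, where 4.62% of 12868 genes were: Ccl6 (-1.66 ± 0.14, edgeR adjusted p = 0.000142), Ccl8 (-1.01 ± 0.10, adjusted p = 0.00036) and Ccl9 (-0.50 ± 0.11, adjusted p = 0.0158). The call of Ccl9 was lost without control IgG (-0.33) and without hairpin 1 IgG (-0.30). In the hairpin 2 line 5 were lower, where 1.87% of genes were: Ccl6 (-1.28 ± 0.14, edgeR adjusted p = 0.0013), Ccl9 (-0.74 ± 0.11, adjusted p = 0.00578), Ccl2 (-0.65 ± 0.10, adjusted p = 0.00786), Ccl8 (-0.62 ± 0.10, adjusted p = 0.00906) and Ccl7 (-0.63 ± 0.11, adjusted p = 0.011). These 5 calls held in 8 of 8 alternative settings.

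Between the hairpin lines themselves 1 member passed, where 3.33% of genes were lower in hairpin 2: Ccl12 was lower by 0.33 ± 0.08 on the log2 scale (edgeR adjusted p = 0.0418). The call held in 4 of 8 alternative settings. Ccl8 had a difference of 0.38 ± 0.10, higher in hairpin 2, that did not pass (edgeR adjusted p = 0.0524).

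**Figure D5:**
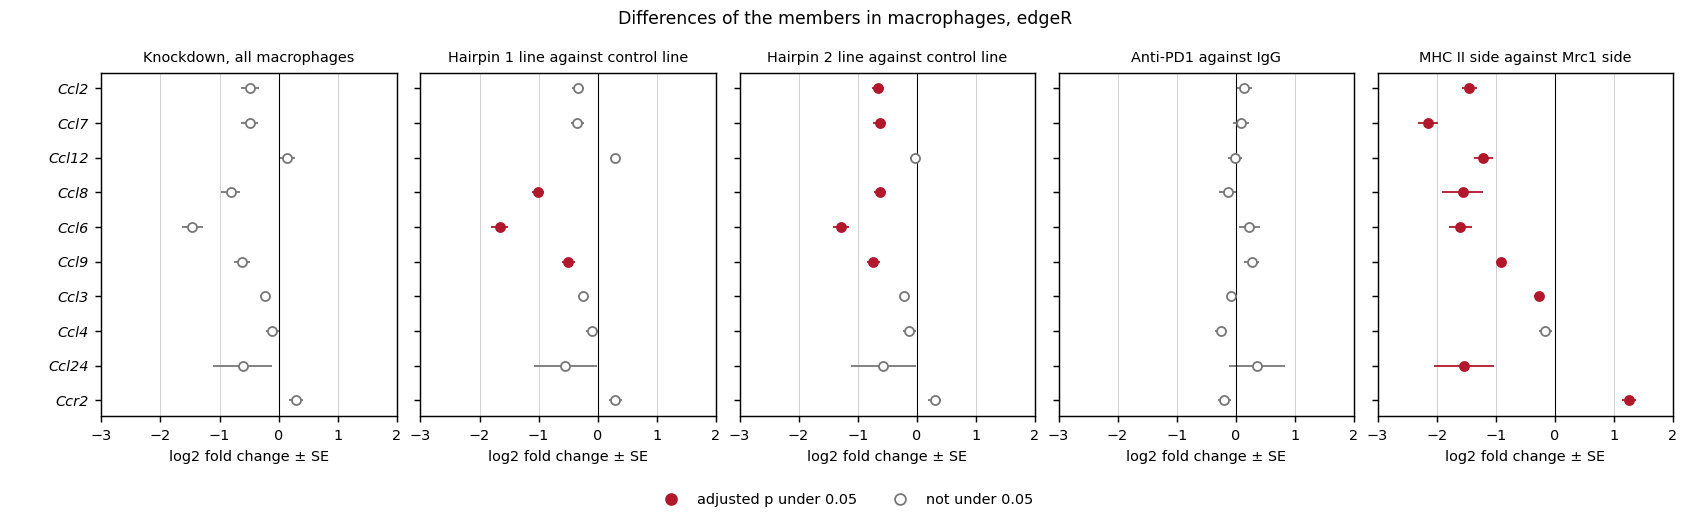
Log2 fold change ± SE of each member in macrophages from edgeR, for the knockdown, each hairpin line against the control line, anti-PD1 against IgG, and the MHC II side against the Mrc1 side, with filled points for an adjusted p under 0.05. No point is filled for the knockdown or anti-PD1, 3 and 5 are filled for the hairpin 1 and hairpin 2 lines, and 9 for the comparison of sides.

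In tumour cells, Ccl2 had a log2 difference of -0.71 ± 0.30 between knockdown and control (edgeR adjusted p = 0.281). The control libraries were both above the 4 knockdown libraries, and the hairpin 1 line was the lowest. The edgeR test called 0 of 15571 genes there, 2980 having an unadjusted p under 0.05, and DESeq2 called 1325, of which 1 was a member: Ccl6 at -1.33, a gene at 0.194% to 1.02% of thinned tumour cells. Ccl7 differed by -0.04 ± 0.21 (edgeR adjusted p = 0.938).

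In monocytes 7 members could be tested and 0 passed, where 0.168% of 7133 genes were called by edgeR, 534 had an unadjusted p under 0.05 and DESeq2 called 11 genes and no member. Ccl6 stood at 1067 and 965 CPM in monocytes of the control line, 1535 and 1652 in hairpin 1 and 712 and 678 in hairpin 2. The control line lay between the hairpin lines, unlike in macrophages, and the log2 difference was 0.17 ± 0.35 (edgeR adjusted p = 0.949). Ccr2 differed by 0.38 ± 0.17 (edgeR adjusted p = 0.675). In neutrophils 6 members could be tested and 0 passed, where 0.0425% of 4703 genes were called by edgeR, 130 had an unadjusted p under 0.05 and DESeq2 called 1 gene and no member. Neutrophil Ccl6 differed by -0.03 ± 0.37 and Ccl3 by 0.13 ± 0.32 (edgeR adjusted p = 0.999 for both). Larger differences did not pass either: in neutrophils Ccl2 was at -1.29 ± 0.44 and Ccl9 at -1.40 ± 0.47 (edgeR adjusted p = 0.973 for both), and in monocytes Ccl7 was at -1.09 ± 0.31 (adjusted p = 0.315). The smallest sums were those of hairpin 1 IgG, with 38 neutrophils and 89 monocytes.

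Anti-PD1 called no member in macrophages, where edgeR called 0 of 12868 genes, 339 had an unadjusted p under 0.05, and DESeq2 called 0. The members' log2 differences, anti-PD1 minus IgG, ran from -0.25 to 0.36, with Ccl9 at 0.27 ± 0.13 and Ccl4 at -0.25 ± 0.10 (edgeR adjusted p = 0.999 for both). In tumour cells edgeR and DESeq2 again called 0 genes, with 118 at an unadjusted p under 0.05 in edgeR, and Ccl2 differed by 0.07 ± 0.29. The test of whether the knockdown difference depended on the antibody called 0 of 13388 genes in edgeR (163 with an unadjusted p under 0.05), and 5 genes but no member in DESeq2.

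Of 28 other genes of the CC chemokine and monocyte growth factor systems, 19 could be tested for the knockdown in macrophages and none passed in edgeR. Within the Mrc1 side 1 of 13 was higher, Cx3cr1, the fractalkine receptor gene of monocytes and tissue macrophages (1.01 ± 0.14, edgeR adjusted p = 0.0377), and none was lower. Within the MHC II side none of 14 passed. Between the sides, 7 of 14 were higher on the MHC II side, where 12% of all genes tested were, and 1 was lower, where 12.4% were. Those higher included Ccl17, a dendritic cell chemokine (4.74), Ccl5, which attracts T cells (2.21), and Csf2rb, a subunit of the GM-CSF receptor (0.68), and the lower one was Cx3cr1 (-0.45). Ccr1, the receptor gene for CCL6, CCL9 and CCL3, stood at 300 to 440.1 CPM in macrophages. Against neutrophils 3 of 16 were higher in macrophages, where 26.1% of all genes were, and 6 lower, where 17.4% were, with Csf1r at 3.61 and Ccr1 at -1.81 on the log2 scale.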

How the data were processed

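The deposited values are UMI counts per gene and barcode, not normalised. The authors used Cell Ranger 7.0.1 and mm10, per the submitters' processing notes. Barcodes with under 300 genes or over 20% mitochondrial UMIs were removed (43843 of 43929 kept), and Scrublet in scanpy 1.11.5, at an expected rate of 0.06, marked 0.866% to 1.63% per library as doublets, leaving 43265 cells. Leiden clustering (2000 variable genes, 30 components, 15 neighbours, resolution 1) gave 24 clusters, named from marker lists. Of 10 tumour-line clusters, the 8 without leading markers of another class were tested as tumour cells.

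Sums of UMI counts for each class of a library (at least 20 cells) were tested with edgeR 4.0.16 (quasi-likelihood F test, TMM, filterByExpr, genotype and treatment as terms, or the library as a block between classes) in R 4.3.3, with Benjamini-Hochberg adjustment over all genes tested and a threshold of 0.05. The code was tested on simulated counts. Alternatives were DESeq2 1.42.0, no filter on low counts, other class limits and each library left out. Members and lists were chosen with earlier results of these data known. Named genes were the 10 members, the called genes of a list of 28 related genes, and the 3 genes most like each member. The values of 1 gene that this rule names are not reported here. The anti-PD1 and IgG libraries of a line come from the same cell line, and their hairpin deviations correlated (r = 0.444 over 12868 genes in macrophages). Poisson intervals cover counting error only.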

Additional observations from a re-analysis of the deposited data

Results flagged for a closer look

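Ccl12 in macrophages differed between the hairpin lines, with a log2 difference, hairpin 2 minus hairpin 1, of -0.33 (edgeR adjusted p = 0.0418), so that lines with the same target did not give the same value. It was 168 and 176 CPM in hairpin 1 and 144 and 132 CPM in hairpin 2, beside 140.4 and 137 CPM in the control line. The call was lost without hairpin 1 anti-PD1, hairpin 1 IgG or hairpin 2 anti-PD1, and with DESeq2.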

How the results depend on the processing

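Of 1461 log2 differences of members under alternative settings, 1387 kept their side of the threshold, 25 lost a call and 48 gained one. The remaining 1 was a called value that changed sign: Ccl24, macrophages against monocytes, was 0.01 with DESeq2. Among the 1387, 74 values that were not called had the other sign. For the knockdown in macrophages (0 members, 11 genes in edgeR) DESeq2 called 3 members (157 genes), testing without a filter on low counts 5 (Ccl2, Ccl7, Ccl8, Ccl6 and Ccl9, 410 genes), cells of host myeloid clusters, an alternative chosen after seeing the data, 1 (Ccl6, -1.45, 39 genes), and libraries left out 0 to 1 (Ccl6, -1.59 without hairpin 2 anti-PD1). Genes called were 0 to 8 with a library left out, 18 at a C1q minimum of 10 and 3 in cells without Xist. DESeq2 called 1 member for the knockdown in the Mrc1 side (157 genes), the MHC II side (22 genes) and tumour cells (1325 genes). It called 0 members between hairpin lines (389 genes). Leaving out libraries gave 0 to 1 on the Mrc1 side (Ccl6, -1.49 without hairpin 2 anti-PD1), 0 to 1 in neutrophils (Ccl2, -2.21 without hairpin 2 anti-PD1), 0 to 1 for the knockdown by side, 0 to 5 between hairpin lines (main 1, 5 without either control library) and 2 to 7 for hairpin 1 (main 3). At most 1 UMI of S100a8 and S100a9 gave 3 and 6 for the last comparisons. In their main settings edgeR called 6.93% and 9.26% of 12868 genes in either direction. The shares of all genes when these comparisons were varied are not given here, so the member counts cannot be set against them. The cause was not tested. Thinning moved 10 of 10 shares of cells, and a mean over cells moved 4 of 10 levels. With the replicate block (line) for anti-PD1, 0 members were called in macrophages and 0 in tumour cells, so the pairing changed no call. Without the library block, Ccl3 between the sides was -0.26 (edgeR adjusted p = 0.0822) and 7 members were called. The knockdown by antibody could not be fitted without either control library.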

Other observations

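Ccl2 was uneven among the tumour cells. It stood at 57.5 CPM in cluster 0 (3506 cells), led by Slc2a1 and Ero1l, genes of the hypoxia response, and at 892 CPM in cluster 1 (643 cells), led by the interferon-induced genes Ifit3 and Ifit1. Ccl7 stood at 29.9 CPM in cluster 0 and 343 CPM in cluster 1. Cluster 11, in which Ccl2 was at 158 CPM, held 24.6% and 28.5% of tumour cells in the hairpin 1 line and 2.32% to 4.77% in the other libraries. Cluster 0 held 24.1% and 23.0% in the control line and 9.41% to 14.1% in the others. Within clusters Ccl2 differed between lines as well, and not in the same order. In cluster 9 it stood at 1014 and 883.5 CPM in the control line, 352.3 and 302.9 in hairpin 1 and 439 and 432.6 in hairpin 2. In cluster 2 it stood at 462.8 and 433.2, 411.7 and 545.6, and 657.7 and 700.5 CPM. The clusters were made from the same cells, and these values are a description with no test.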
